A study of Rattus norvegicus with 12 samples.

Results

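The cathepsins are proteases of the lysosome and of the endosomes that feed it. The expression of 10 cathepsin genes, Ctsa, Ctsb, Ctsc, Ctsd, Ctse, Ctsh, Ctsk, Ctsl, Ctss and Ctsz, was examined in the kidneys of 2 rat models of renal fibrosis. They were taken by symbol from 2 tables of FPKM, fragment numbers corrected for the length of the transcript and for the fragments mapped in the sample. Each symbol had 1 entry in each table, so they made up 10 of 22132 entries of control and adenine kidneys and 10 of 32623 entries of sham and UUO kidneys.

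Poly(A) RNA of whole kidney tissue was sequenced from 12 male wild-type SD rats, 3 in each of 4 groups. All rats were 8 weeks old when purchased. Over 3 weeks the adenine group was gavaged daily with adenine (220 mg/kg), and its control group was given saline. In the UUO (unilateral ureteral obstruction) group the left ureter was tied and the kidney was taken 2 weeks later, and the sham group had the operation with no ligation. Each table was normalised on its own, so changes were tested only within a table. Whole tissue holds all cell types of the kidney, and more cells of a type and more RNA per cell cannot be told apart in it.

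Cathepsins are made as inactive proenzymes, tagged with mannose 6-phosphate in the Golgi, carried to lysosomes by receptors for that tag and activated there by cleavage in acid. Proximal tubule cells, which take up filtered protein from the urine by endocytosis, rely on them to break it down to amino acids, and macrophages, dendritic cells and osteoclasts use them to digest what they engulf, to process antigens and to dissolve matrix. Cystatins inhibit those that use a cysteine at the active site. Of the 10 genes, 7 encode cysteine proteases (Ctsb, Ctsc, Ctsh, Ctsk, Ctsl, Ctss and Ctsz), 2 encode aspartic proteases (Ctsd and Ctse) and 1 encodes a serine carboxypeptidase (Ctsa).

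Promoter sequences of RefSeq (build GRCr8) were matched by symbol for 9 of the 10 genes, all except Ctsb. The 250 bases before the start site are shown for Ctsk and Ctsd, the cathepsin gene with the largest rise in the adenine model and the one that held a pair of CACGTG motifs, and windows of 30 bases for Ctsc, Ctse and Ctss, which shared a motif. All are written 5′ to 3′ on the strand of the gene, with CACGTG and GAGGAAGT motifs in capitals. The Ctsd stretch also holds a GC box match (GGGCGG, read as CCGCCC), left in lower case. The Ctsk stretch is chr2:185747298-185747547 on the plus strand and the Ctsd stretch chr1:206968822-206969071 on the minus strand. The windows are chr1:151440799-151440828 for Ctsc, chr13:45644149-45644178 for Ctse and chr2:185775366-185775395 for Ctss, all on the plus strand.
Ctsk: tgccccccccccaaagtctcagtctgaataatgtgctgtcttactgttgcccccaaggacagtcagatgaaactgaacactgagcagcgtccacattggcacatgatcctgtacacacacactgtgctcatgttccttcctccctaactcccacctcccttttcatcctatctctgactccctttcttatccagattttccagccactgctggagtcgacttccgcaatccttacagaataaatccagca
Ctsd: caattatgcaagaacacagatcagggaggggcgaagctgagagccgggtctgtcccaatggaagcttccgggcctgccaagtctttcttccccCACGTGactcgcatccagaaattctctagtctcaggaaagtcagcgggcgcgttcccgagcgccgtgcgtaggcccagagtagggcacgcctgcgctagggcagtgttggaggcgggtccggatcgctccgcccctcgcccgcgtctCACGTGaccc
Ctsc: taACTTCCTCaggccacaggtaattctatc
Ctse: agagcaggcgcACTTCCTCtaagtgccaaa
Ctss: gaaatgaaagttcACTTCCTCgttgtggat

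The search covered both strands of these 250 bases in 33469 promoters. CACGTG, the core of the motif bound by transcription factors of the MiT/TFE family that switch on lysosomal genes, was found in 5.59% of all promoters and, among the 9 cathepsins, in Ctsd alone. It began there at 157 and 10 bases before the start site. GAGGAAGT, a form of the site of PU.1, a transcription factor of macrophages and B cells, was in 2.04% of all promoters and in those of Ctsc, Ctse and Ctss, each time read as ACTTCCTC on the strand of the gene. GGGCGG, a GC box, was in 30.5% of all promoters and in 5 of the 9 (Ctsa, Ctsc, Ctsd, Ctsl and Ctsz), TATAAA was in 12.9% and in Ctss, and TGANTCA, the AP-1 motif, was in 6.34% and in 0 of the 9. No matches in the cathepsin promoters overlapped each other. A match describes the sequence and does not show that a factor binds there.

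Ctsl was the highest cathepsin in undiseased kidneys. Its level was 769.7 ± 33.2 FPKM in control and 791 ± 40.7 in sham kidneys (mean ± SD, n = 3 here and below), above every other cathepsin in every one of these samples. In control kidneys Ctsb followed at 306 ± 49.6, Ctsh at 219 ± 87.6, Ctsd at 194 ± 31.7 and Ctsa at 169 ± 54.5, and each of these overlapped its neighbour in the order. Ctsc (48.8 ± 24.2), Ctss (18.3 ± 1.39), Ctsz (12.3 ± 0.426), Ctsk (6.80 ± 1.48) and Ctse (0.756 ± 0.380) came below them with no overlap between neighbours. The order in sham kidneys was the same, though there Ctss and Ctsz overlapped and Ctsh and Ctsd did not.

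**Figure D1:**
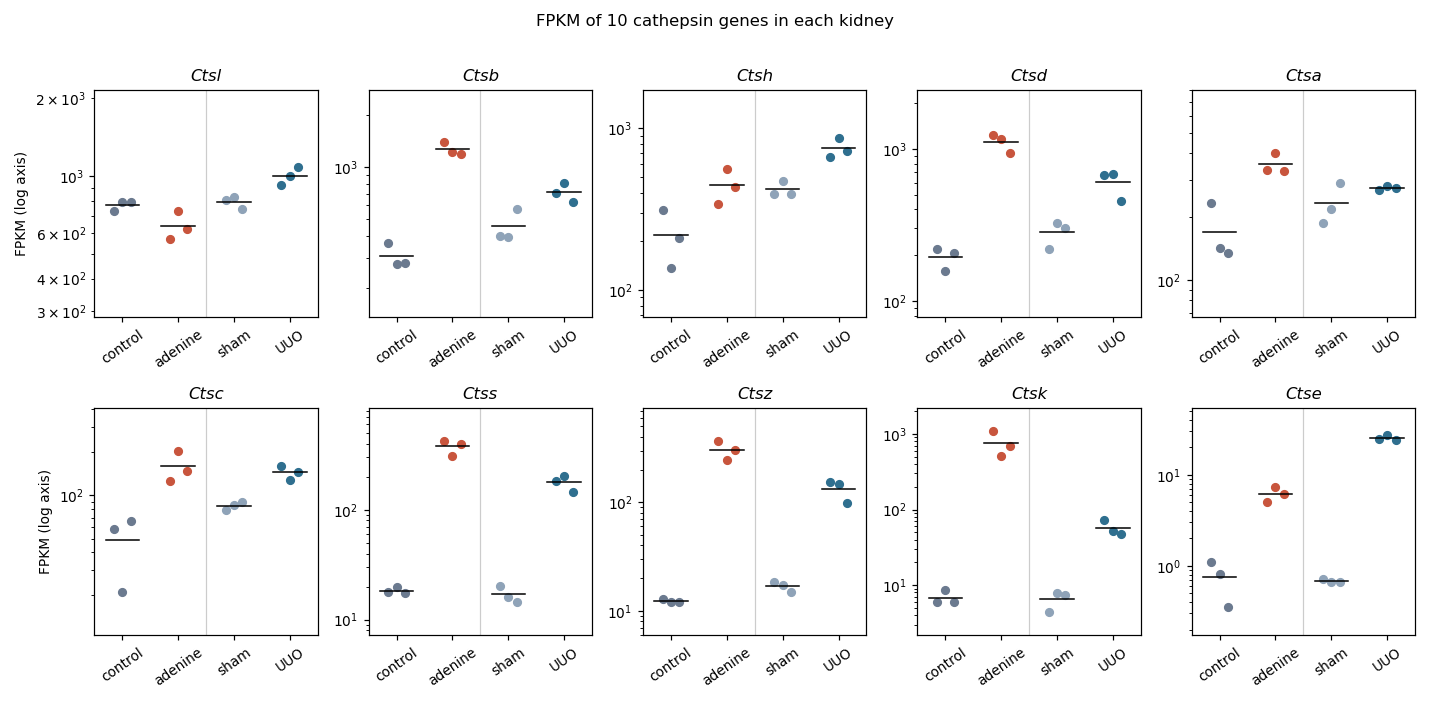
FPKM of each cathepsin gene (vertical log axis, a separate scale for each gene) by group; points are the 3 kidneys of each group and the black line is their mean. The adenine kidneys lie above the control kidneys for 9 genes, with Ctsl the exception, and the UUO kidneys lie above the sham kidneys for 9 genes, with Ctsa the exception.

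The question in each model was which cathepsins changed and by how much. With limma on log2(FPKM + 0.1) and Benjamini-Hochberg adjustment over all tested entries, 9 of the 10 cathepsins rose in the adenine model (adjusted p under 0.05), where 39.6% of 15029 entries did, and 0 fell, where 19.9% of entries did. Of these, 6 were upregulated differentially expressed genes (DEGs, which also have a log2 fold change of at least 2), namely Ctsb, Ctsd, Ctse, Ctsk, Ctss and Ctsz, against 10.7% of all entries. The median log2 fold change of the 10 was 2.28 against 0.30 over all entries. In the UUO model 9 cathepsins rose, where 56.1% of 15043 entries did, and 0 fell, where 14.4% of entries did. There 4 were upregulated DEGs, Ctse, Ctsk, Ctss and Ctsz, against 13.2% of entries, and the median was 0.96 against 0.62.

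The smaller changes moved with the scaling. After median-of-ratios scaling, which brought the median over all entries to 0.014 in the adenine and 0.032 in the UUO model, 8 cathepsins rose and 1 fell (Ctsl) in the adenine model, where 29.0% of entries rose and 28.4% fell, and 5 were upregulated DEGs (8.72% of entries). Ctse, Ctsk, Ctss and Ctsz were the 4 that rose in the UUO model, all as DEGs, where 28.0% of entries rose, 27.9% fell and 8.3% were upregulated DEGs. The other 6 did not pass there.

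**Figure D2:**
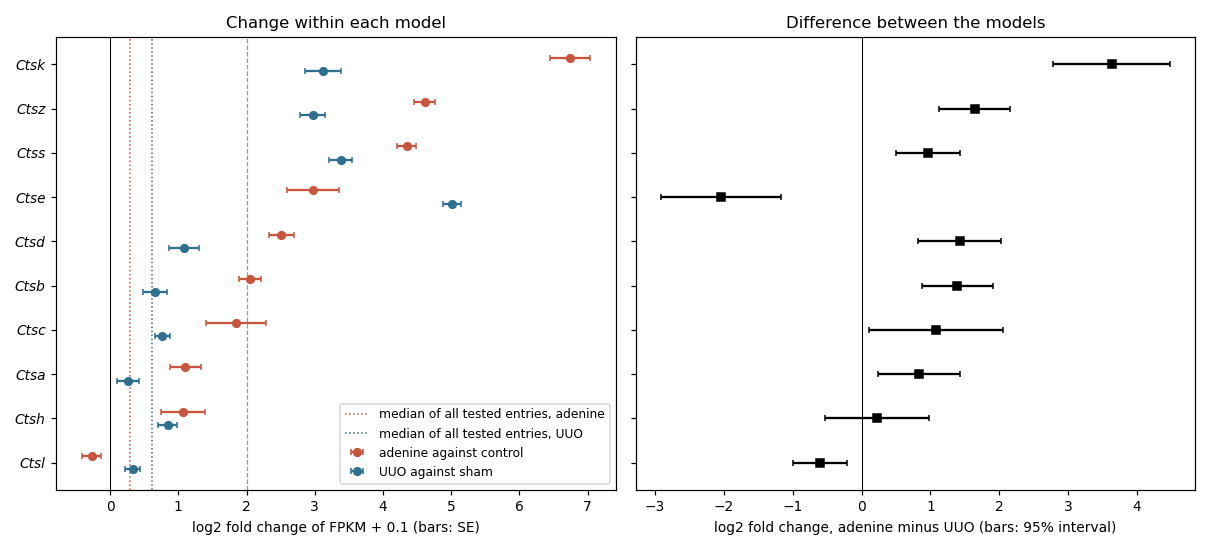
Left, log2 fold change of FPKM + 0.1 of each cathepsin in the adenine (red) and UUO (blue) models, with SE bars, a dashed line at the DEG threshold of 2 and dotted lines at the median of all tested entries (0.30 and 0.62). Right, the log2 fold change in the adenine model minus that in the UUO model with its 95% interval, from 3.63 for Ctsk to -2.04 for Ctse.

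Ctsk, Ctss and Ctsz are cysteine proteases best known from cells of the macrophage lineage, and they were DEGs in both models. Cathepsin K is the main collagen-degrading protease of osteoclasts. Its FPKM was 5.95, 8.51 and 5.94 in control kidneys and 1101, 512 and 693 in adenine kidneys. It thus went from the ninth to the third place among the 10, and its mean was 113 times that of the control group. The log2 fold change was 6.75 ± 0.29 (SE, adjusted p = 2.61e-05), and it ranked 29 among 15029 entries.

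Ctsk was 4.39, 7.97 and 7.45 in sham and 72.3, 52.1 and 47.1 in obstructed kidneys, an 8.66-fold higher mean. The log2 fold change was 3.12 ± 0.26 (adjusted p = 8.96e-05). The lowest adenine kidney was above the highest UUO kidney, across tables that were normalised separately. The change was larger in the adenine model by 3.63 (95% interval 2.79 to 4.48, adjusted p = 9.58e-05), and this was the only cathepsin difference in that direction of at least 2. Among all 13486 genes compared, 1.07% had such a difference.

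Cathepsin S cleaves the invariant chain (Cd74) in antigen-presenting cells and stays active at neutral pH. Ctss was 17.7, 19.9 and 17.4 FPKM in control and 423, 312 and 397 in adenine kidneys, with a log2 fold change of 4.35 ± 0.14 (adjusted p = 1.89e-05). In sham kidneys it was 20.2, 16.2 and 14.5 and in UUO kidneys 183, 205 and 146, a change of 3.38 ± 0.17 (adjusted p = 1.65e-05). Replicates varied by little next to either change, and the rise was larger in the adenine model by 0.96 (95% interval 0.49 to 1.43, adjusted p = 0.00672).

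Ctsz encodes cathepsin Z, a carboxypeptidase of monocytes and macrophages that also binds integrins. Its FPKM rose from 12.7, 12.02 and 11.99 to 370, 246 and 304 in the adenine model, a log2 fold change of 4.61 ± 0.15 (adjusted p = 1.89e-05). In the UUO model it went from 18.2, 17.2 and 14.9 to 155, 147 and 99.4, a change of 2.97 ± 0.18 (adjusted p = 3.04e-05). The adenine model exceeded the UUO model by 1.64 (95% interval 1.13 to 2.16, adjusted p = 0.000645).

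Ctsk and Ctss did not rise in a fixed ratio in the adenine model. The FPKM of Ctsk divided by that of Ctss was 0.368 ± 0.0509 in control and 2.00 ± 0.529 in adenine kidneys, where Ctsk was the higher of the pair in all 3. The ratio was 0.408 ± 0.165 in sham and 0.324 ± 0.0705 in UUO kidneys, and these overlapped. Of the stretches shown above, that of Ctss holds the GAGGAAGT motif and that of Ctsk none of the 5 motifs. The Ctsz promoter has no GAGGAAGT match, while those of Ctsc and Ctse do. The part of the motif in these changes was not tested.

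Among the remaining cysteine proteases, Ctsb, Ctsc and Ctsh rose in both models. Cathepsin B, which cuts both within proteins and at their ends, was 363, 275 and 280 FPKM in control and 1390, 1218 and 1183 in adenine kidneys. With a log2 fold change of 2.05 ± 0.16 (adjusted p = 0.000113) it became the highest cathepsin, although its range overlapped that of Ctsd. It was 399.8, 395 and 572 in sham and 709.7, 806 and 629 in UUO kidneys, a change of 0.66 ± 0.18 (adjusted p = 0.0133) that came to 0.063 (adjusted p = 0.786) with median-of-ratios scaling. The difference between the models was 1.39 (95% interval 0.87 to 1.904, adjusted p = 0.00163).

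Cathepsin C, or dipeptidyl peptidase 1, activates the serine proteases of immune cell granules. Ctsc was 58.4, 21.2 and 66.7 in control and 127, 204 and 147 in adenine kidneys, a change of 1.84 ± 0.44 (adjusted p = 0.0104), and it was 79.2, 86.1 and 89.9 in sham and 161, 128 and 146 in UUO kidneys, a change of 0.76 ± 0.11 (adjusted p = 0.000781). Control kidney 2 was the lowest of all 12 for Ctsc and for Ctsh. The difference between the models was 1.08, with a 95% interval of 0.10 to 2.05 and an adjusted p of 0.0912. It was 1.38 and passed without control replicate 3 (adjusted p = 0.0491) and with median-of-ratios scaling (adjusted p = 0.0445).

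Cathepsin H is an aminopeptidase. Ctsh was 312, 137 and 209 in control and 341, 562 and 435 in adenine kidneys, and the nearest samples of the groups, 312 and 341, almost met. Its change of 1.07 ± 0.32 (adjusted p = 0.0259) did not pass without control replicate 2 (0.77, adjusted p = 0.0536), control replicate 3 (adjusted p = 0.0646), adenine replicate 2 (0.89, adjusted p = 0.0767) or adenine replicate 3 (adjusted p = 0.0705). Ctsh was 390.3, 471 and 394 in sham and 668, 867 and 725 in UUO kidneys, a change of 0.84 ± 0.14 (adjusted p = 0.00147). The models differed by 0.23, with a 95% interval of -0.53 to 0.99.

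Cathepsin L, an endopeptidase abundant in the proximal tubule, did not pass the test in the adenine model. Ctsl was 731, 789 and 789 in control and 571, 732 and 620 in adenine kidneys, so that the groups overlapped at a single adenine kidney, and the log2 fold change was -0.27 ± 0.14 (adjusted p = 0.146). It was called lower after median-of-ratios scaling (-0.56, adjusted p = 0.0197) and after quantile normalization (-0.37, adjusted p = 0.0466), and came to -0.00034 with FPKM rescaled to the same sum.

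Obstructed kidneys differed. Ctsl was 803, 825 and 746 in sham and 923, 998 and 1076 in obstructed kidneys, a change of 0.33 ± 0.11 (adjusted p = 0.0292). It remained the highest cathepsin there, with no overlap with Ctsh. The change turned to -0.27 (adjusted p = 0.108) with median-of-ratios scaling, and it did not pass without sham replicate 1 (0.35, adjusted p = 0.0570), sham replicate 3 (0.29, adjusted p = 0.0757), UUO replicate 2 (0.33, adjusted p = 0.0747) or UUO replicate 3 (0.28, adjusted p = 0.106). Relative to the UUO model, the adenine change was lower by 0.61 on the log2 scale (difference -0.61, 95% interval -0.995 to -0.22, adjusted p = 0.0257), and this did not pass without control replicate 3 (adjusted p = 0.0629), adenine replicate 1 (adjusted p = 0.0828), adenine replicate 3 (adjusted p = 0.0692) or UUO replicate 3 (adjusted p = 0.0575). It was -0.30 (adjusted p = 0.320) with median-of-ratios scaling and did not pass with no filter on low values (adjusted p = 0.0540).

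Both aspartic cathepsins rose in both models. Cathepsin D is the main aspartic protease of lysosomes in most cells. Ctsd was 218, 158 and 206 in control and 1223, 1152 and 935 in adenine kidneys, a log2 fold change of 2.51 ± 0.18 (adjusted p = 7.85e-05). In sham kidneys it was 219.9, 326 and 302 and in UUO kidneys 675, 679.7 and 451, a change of 1.08 ± 0.22 (adjusted p = 0.00373) that fell short of the threshold at 0.48 (adjusted p = 0.124) with median-of-ratios scaling. The adenine change was larger by 1.43 (95% interval 0.83 to 2.03, adjusted p = 0.00314).

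Cathepsin E is an endosomal aspartic protease of immune cells and of some epithelia, such as those of the stomach and bladder. It was the lowest of the 10 in every group, and its rise was larger in the UUO model. Ctse was 0.721, 0.672 and 0.669 in sham and 24.9, 27.1 and 23.8 in UUO kidneys, a 36.8-fold higher mean and a log2 fold change of 5.01 ± 0.13 (adjusted p = 5.37e-06). In the adenine model it went from 1.10, 0.817 and 0.349 to 5.01, 7.41 and 6.13, a change of 2.97 ± 0.38 (adjusted p = 0.000778). The difference was -2.04 (95% interval -2.91 to -1.17, adjusted p = 0.00341), and 1.82% of all genes compared had a difference of at least 2 in that direction. Without control replicate 1, control replicate 2, adenine replicate 1 or UUO replicate 2 its size was under 2, and the value nearest to 0 was -1.74.

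Ctsa encodes the serine carboxypeptidase that holds beta-galactosidase (Glb1) and the sialidase Neu1 in a complex and protects them. It was 232, 142 and 134 in control and 334, 401 and 329 in adenine kidneys, a change of 1.11 ± 0.23 (adjusted p = 0.00554). In sham kidneys it was 187, 217 and 289 and in UUO kidneys 268, 281 and 273, which overlapped, and the change of 0.27 ± 0.16 had an adjusted p of 0.171. It passed without sham replicate 3 (0.44, adjusted p = 0.0115) and turned to -0.33 (adjusted p = 0.110) with median-of-ratios scaling. The models differed by 0.84 (95% interval 0.24 to 1.43, adjusted p = 0.0391), a difference that was lost in 9 of 12 fits made with a sample removed (0.66 to 0.89, adjusted p up to 0.102). The fits without control replicate 1, sham replicate 1 or sham replicate 2 kept it.

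Taken one at a time with the exact two-sided permutation test, the 9 genes whose groups did not overlap in a model each had p = 0.1, the smallest that 3 against 3 samples can give. All treated samples lay above all reference samples for 45.0% of entries in the adenine and 60.0% in the UUO table. For Ctsl in the adenine model the exact permutation p was 0.2 and for Ctsa in the UUO model 0.4.

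Between the models, 6 cathepsins had the larger change in the adenine model (adjusted p under 0.05), where 5.25% of the genes compared did. They were Ctsk, Ctsz, Ctsd, Ctsb, Ctss and Ctsa. Ctse and Ctsl had the higher change in the UUO model, as 21.7% of genes did, and for Ctsc and Ctsh the difference did not pass.

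The sum and make-up of cathepsin transcripts changed with these shifts. The 10 genes summed to 1564 to 1952 FPKM in control and 5049 to 5883 in adenine kidneys, or 0.303% and 1.14% of all FPKM on average. In sham kidneys they summed to 2123 to 2431 FPKM and in UUO kidneys to 3616 to 4190 (0.369% and 0.726% of all). Ctsl held 44.6% of the sum in control and 11.9% in adenine kidneys, against 34.5% in sham and 25.9% in UUO kidneys. Ctsk went from 0.398% to 14.0% of the sum in the adenine model and from 0.284% to 1.48% in the UUO model.

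**Figure D3:**
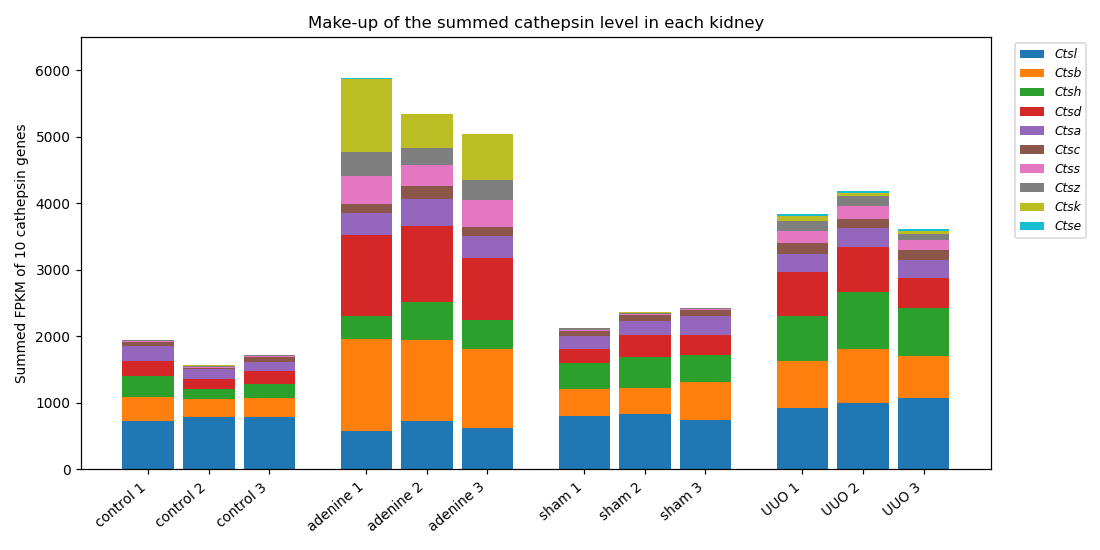
Summed FPKM of the 10 cathepsin genes (vertical axis, from 0) in each of the 12 kidneys, with each colour the part of a gene. The 3 adenine bars stand at 5049 to 5883 with a broad Ctsk band, which in adenine kidney 1 is 1101 FPKM, and the Ctsl band at the base runs from 571 to 1076 FPKM.

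In adenine kidneys the first 4 places were Ctsb (1264 ± 111), Ctsd (1103 ± 150), Ctsk (768.5 ± 302) and Ctsl (641 ± 82.5), each overlapping the next. Ctsh, Ctss, Ctsa and Ctsz followed between 446 ± 111 and 306 ± 61.7, again with overlapping neighbours, then Ctsc (159 ± 40.2) and Ctse (6.18 ± 1.203). In UUO kidneys Ctsl (999 ± 76.6) stood first, Ctsh (753 ± 102), Ctsb (715 ± 88.9) and Ctsd (602 ± 131) overlapped, and Ctsk (57.2 ± 13.3) and Ctse (25.3 ± 1.65) came last.

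Markers of several cell types moved with the groups. Over all entries, 39.6% rose and 19.9% fell in the adenine model, and 56.1% rose and 14.4% fell in the UUO model. Upregulated DEGs were 10.7% and 13.2% of entries. All 10 macrophage markers were DEGs in both models. Cd163 was the lowest in control and sham kidneys, at means of 0.0276 and 0.0117 FPKM, and passed the filter through the treated kidneys alone. The summed FPKM of the 10 was 214 to 273 in control and 7197 to 13610 in adenine kidneys. It was 238 to 364 in sham and 1969.6 to 2931 in UUO kidneys. Lyz2 made up most of the sum in every group, at 12329, 5964 and 9046 in adenine and 1868, 1772 and 1216 in UUO kidneys. Cd68, a glycoprotein of macrophage lysosomes, had log2 fold changes of 6.20 (adjusted p = 2.48e-05) and 3.71 (adjusted p = 3.15e-05), and Lyz2, the lysozyme of myeloid cells, 5.65 and 2.76. The smallest changes were those of Aif1, a calcium-binding protein of macrophages, at 2.10 and 2.55. The difference between the models passed for 4 of the 10, all larger in the adenine model as for Ctsk, Ctss and Ctsz, with 2.90 for Lyz2, 2.49 for Cd68, 1.64 for Cd163 and 1.06 for Csf1r. It did not pass for the other 6, with 0.029 for C1qc to 0.75 for Mrc1, and -0.45 for Aif1 and -0.52 for Adgre1. The part of macrophages in the cathepsin changes was not tested.

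Of 6 markers of osteoclasts and multinucleated giant cells, 3 rose in the adenine model and 1 fell. Of all entries there, 39.6% rose and 19.9% fell. Ocstamp, needed for their fusion, was at 0.0856 FPKM in control and 9.56 in adenine kidneys (log2 fold change 5.88, adjusted p = 0.000285), and Nfatc1, the transcription factor that drives Ctsk in osteoclasts, rose by 2.96. Acp5, the tartrate-resistant acid phosphatase of osteoclasts, rose by 0.40 (0.11 with adjusted p = 0.471 after median-of-ratios scaling), Calcr, the calcitonin receptor, fell by 2.14, and Atp6v0d2, a proton pump subunit, had a change of 0.059 (adjusted p = 0.886). Of the 4 tested in the UUO model, Nfatc1 rose by 1.55 and Atp6v0d2 fell by 1.42, while Ocstamp, below the filter, averaged 0.0683 FPKM in sham and 0.0999 in UUO kidneys. The summed FPKM of the 6 was 57.3 to 82.7 in control and 81.0 to 116 in adenine kidneys. It was 71.1 to 83.1 in sham and 55.2 to 60.9 in UUO kidneys. Most of each sum came from Atp6v0d2 and Acp5, with means of 43.0 and 26.9 in control and 43.4 and 35.6 in adenine kidneys. Their means were 43.9 and 31.0 in sham and 16.7 and 34.8 in UUO kidneys. The sum thus follows mainly Atp6v0d2 and Acp5, and the part of osteoclasts and giant cells in the Ctsk change was not tested.

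Urothelial markers moved with Ctse in the UUO model, where 13.2% of all entries were upregulated DEGs. All 5 (Upk1a, Upk1b, Upk2, Upk3a and Krt5) were DEGs there, led by Upk3a, a uroplakin of the urothelial surface (log2 fold change 7.50, adjusted p = 5.10e-05). Their summed FPKM was 0.646 to 2.67 in sham and 72.0 to 145 in UUO kidneys. With sums of 0.646 and 0.935 in sham replicates 2 and 3, they passed the filter mainly through the UUO kidneys. The count of DEGs therefore cannot be weighed against the share of all entries. In the adenine model 2 were tested, 0 passed, and the sums were 0.740 to 6.96 in control and 1.07 to 3.89 in adenine kidneys, where Ctse also rose. The part of urothelium in the Ctse change was not tested.

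All 5 fibroblast markers rose in each model, where 39.6% (adenine) and 56.1% (UUO) of all entries rose. Lum, a collagen-binding proteoglycan, rose by 4.40 and 5.47, and Dcn, decorin, the highest of the list, by 2.56 and 4.15. The smallest changes were those of Acta2, the smooth muscle actin of myofibroblasts, in the adenine model (0.96, and 0.67 with adjusted p = 0.0668 after median-of-ratios scaling) and of Pdgfra in the UUO model (1.78). Of 6 proximal tubule markers, 3 fell in the adenine and 4 in the UUO model, where 19.9% and 14.4% of all entries fell. Their summed FPKM was 739 to 1665 in control, 48.0 to 283 in adenine, 1056 to 1536 in sham and 93.3 to 258 in UUO kidneys. Slc34a1, the phosphate transporter of the proximal tubule, fell by 4.31 and 3.86, and Slc22a6, an organic anion transporter, by 3.88 and 4.54. Slc5a2, the glucose transporter of the early proximal tubule, had the highest changes of the list, 2.78 (adjusted p = 0.1002) and 0.047 (adjusted p = 0.961). Ctsl, itself abundant in that segment, was at 571 to 789 FPKM in control and adenine kidneys and at 746 to 1076 in sham and UUO kidneys. Its calls depended on the scaling, and its link to these markers was not tested. Of 6 distal and collecting duct markers, 3 fell in the adenine and 6 in the UUO model, Umod, the most abundant urinary protein of the healthy kidney, by 3.43 and 4.47. Calb1, a calcium-binding protein of the distal tubule, fell by 4.93 in the UUO model, and Aqp3, a water channel, had the changes nearest 0, -0.48 (adjusted p = 0.295) and -0.99 (adjusted p = 0.00140). All 3 tested neutrophil markers rose in the adenine model and all 4 in the UUO model. S100a9 rose by 3.51 and 4.29, S100a8 by 4.76 and 3.53 and Csf3r by 2.94 and 2.87. The neutrophil list was low in sham kidneys, where it summed to 0.304 to 1.57 FPKM. Of dendritic and B cell markers 1 of 2 tested rose in the adenine model (Flt3 by 2.30, with Cd79a at 1.54 and an adjusted p of 0.105). In the UUO model 3 of 3 rose, Flt3 by 2.47 and Ms4a1 by 3.44. Of these, Cd79b and Ms4a1 were under 0.5 FPKM in every sham kidney (highest 0.335 and 0.0918) and passed the filter through the UUO kidneys alone. Both were below the filter in the adenine model, so the counts of the models are partly set by the filter.

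Among the inhibitors, 5 of 6 tested cystatins and related proteins rose in the adenine model (median log2 fold change 1.84), where 39.6% of all entries rose. In the UUO model, where 56.1% of entries rose, 4 of the 6 rose and 1 fell (median 1.03), and with median-of-ratios scaling 3 rose and 1 fell (median 0.43). Cst3, cystatin C, the secreted inhibitor whose blood level serves as a measure of filtration, rose by 1.19 ± 0.22 (adjusted p = 0.00398) and by 1.44 ± 0.14 (adjusted p = 0.000142). Ctsb divided by Cst3 was 1.05 ± 0.357 in control and 1.84 ± 0.217 in adenine kidneys, without overlap, and 1.24 ± 0.203 in sham and 0.723 ± 0.0961 in UUO kidneys, where it was lower without overlap. Cstb, cystatin B, the inhibitor inside cells, rose by 1.65 and by 0.62, the latter 0.019 (adjusted p = 0.920) with median-of-ratios scaling. Ctsb divided by Cstb was 3.09 ± 0.698 in control and 4.03 ± 0.309 in adenine kidneys and 3.11 ± 0.645 in sham and 3.20 ± 0.697 in UUO kidneys, and the last 2 groups overlapped. Cst7, cystatin F, which enters immune cell lysosomes and inhibits cathepsin C, rose by 4.38 and 2.86 and by more in the adenine model (difference 1.52, adjusted p = 0.00594). Cst6, cystatin M, rose by 2.73 and 2.90, and the liver-derived Fetub fell by 1.01 in the UUO model.

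Neu1, a partner of Ctsa, fell in both models. It went from 37.1 to 23.9 FPKM on average in the adenine model (log2 fold change -0.63, adjusted p = 0.0229) and from 42.4 to 22.7 in the UUO model (-0.87, adjusted p = 0.00526). Ctsa divided by Neu1 was 4.52 ± 0.718 in control, 14.9 ± 0.771 in adenine, 5.65 ± 1.61 in sham and 12.1 ± 0.513 in UUO kidneys, with no overlap within either model. Glb1 had a change of 0.20 (adjusted p = 0.525) in the adenine model and rose by 0.39 (adjusted p = 0.0125) in the UUO model, which turned to -0.21 with median-of-ratios scaling. Of the other cofactors, Psap, the precursor of the saposins and a binding partner of procathepsin D, rose by 1.94 and 0.91, the latter 0.31 (adjusted p = 0.138) with median-of-ratios scaling. Grn, progranulin, rose by 2.13 and 1.69, and Gm2a, the activator of ganglioside breakdown, by 5.07 and 1.96.

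Other lysosomal genes rose in part in the adenine model. Of 7 other lysosomal peptidases 5 rose (median 1.31), among them Prcp, a serine carboxypeptidase, by 3.45, while Cpq, a carboxypeptidase, had -0.67 (adjusted p = 0.0880) and Napsa, the kidney aspartic protease napsin A, -0.55 (adjusted p = 0.122). Legumain (Lgmn), which processes procathepsins to their mature forms, rose by 1.16 (adjusted p = 0.0110). Of 21 tested glycosidases, sulfatases and lipid hydrolases 15 rose and 1 fell (median 0.81), led by Ppt1, a thioesterase that removes palmitate, at 3.26. Lipa, the acid lipase and the highest of that list, rose by 3.04 and Arsa, arylsulfatase A, fell by 0.88. Of 10 membrane proteins 7 rose and 1 fell (median 0.76), Laptm5, of blood cell lysosomes, by 4.05, and Cd63, a tetraspanin and the highest of the list, by 0.50, and the calcium channel Mcoln1 fell by 1.61. Of all entries 39.6% rose. With median-of-ratios scaling 10 of the 21 hydrolases (median 0.52) and 5 of the 10 membrane proteins (median 0.47) rose, and Cd63 had 0.20 (adjusted p = 0.318). Of the 7 peptidases 5 rose and 2 fell with that scaling, where 29.0% of all entries rose and 28.4% fell. Those that fell were Cpq (-0.97, adjusted p = 0.0249) and Napsa (-0.85, adjusted p = 0.0303).

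With obstruction, 4 of the 7 peptidases rose (median 0.52), 13 of the 21 hydrolases rose and 1 fell (median 0.56), and 6 of the 10 membrane proteins rose and 1 fell (median 0.64), where 56.1% of entries rose and their median was 0.62. With median-of-ratios scaling the first 2 of these medians turned to -0.077 and -0.034 and the third came to 0.048. Prcp rose by 2.60, Galns, a sulfatase, by 2.19, and Laptm5 by 3.06, while Mcoln1 fell by 1.23, Galc, galactosylceramidase, fell by 0.44, and Lgmn had a change of 0.46 (adjusted p = 0.0931). Hexa, a hexosaminidase subunit and the highest hydrolase there, had 0.21 (adjusted p = 0.0819), Cd63 0.14 (adjusted p = 0.197) and Cpq -0.30 (adjusted p = 0.0619). With median-of-ratios scaling these genes fell, with -0.39 (adjusted p = 0.0202), -0.46 (adjusted p = 0.00795) and -0.90 (adjusted p = 0.00102).

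**Figure D4:**
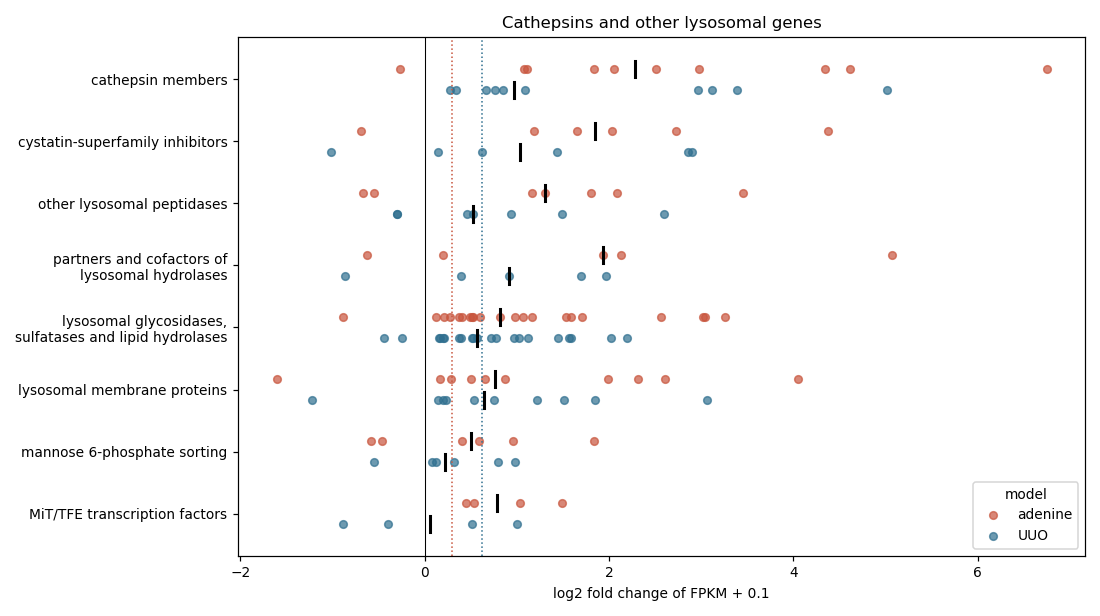
Log2 fold change of FPKM + 0.1 for the tested genes of each lysosomal list in the adenine (red) and UUO (blue) models; each point is a gene, black ticks are medians of a list and dotted lines are the medians of all entries. The cathepsin median stands at 2.28 in the adenine model and at 0.96 in the UUO model, and of the other lists plotted the inhibitors have a higher median in the UUO model, 1.03.

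Genes that sort lysosomal enzymes or switch on their genes had medians below those of the cathepsins. Of 6 genes of mannose 6-phosphate sorting, 3 rose and 1 fell in each model (medians 0.50 and 0.22), where 39.6% and 56.1% of all entries rose. With median-of-ratios scaling 2 rose and 2 fell in the adenine model, and 1 rose and 4 fell in the UUO model (median -0.37). Gnptab, a subunit of the enzyme that adds the tag, rose by 1.83 and 0.98 (the latter 0.39 with that scaling), and M6pr, a receptor for the tag, by 0.95 and 0.79 (the latter 0.19 with adjusted p = 0.114). Gnptg, another subunit of that enzyme, fell by 0.59 in the adenine model, and it rose by 0.32 in the UUO model, which turned to -0.28 with that scaling. Igf2r, the larger receptor for the tag, had 0.40 (adjusted p = 0.173) in the adenine model and fell by 0.56 in the UUO model. Of the 4 MiT/TFE factors, Tfe3 rose by 1.49 and 1.00 and Tfeb by 0.53 and 0.51. With median-of-ratios scaling the change of Tfe3 in the UUO model was 0.40 (adjusted p = 0.0533), and Tfeb had 0.24 (adjusted p = 0.163) under adenine and -0.088 under obstruction. Mitf, which acts on Ctsk in osteoclasts, rose by 1.03 (adjusted p = 0.0199) in the adenine model, or 0.74 (adjusted p = 0.0625) with that scaling, and had -0.40 (adjusted p = 0.533) in the UUO model, where Tfec fell by 0.89. The difference between the models was 1.44 for Mitf (95% interval 0.088 to 2.78, adjusted p = 0.103).

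Among proteins that cathepsins cut, Fn1, fibronectin, rose by 5.46 and 3.47, Col1a1, the main chain of type I collagen and a substrate of cathepsin K, by 3.70 and 5.27, and Cd74, the invariant chain cut by cathepsin S, by 2.38 and 2.57. Eln, elastin, a substrate of cathepsins K and S, had a change of 1.12 (adjusted p = 0.0757) in the adenine model and rose by 4.75 in the UUO model. The difference was -3.64 for Eln (adjusted p = 0.0115) and -1.57 for Col1a1 (95% interval -2.97 to -0.17, adjusted p = 0.0871), the opposite sign to that of Ctsk. Lrp2, the endocytic receptor megalin, fell by 2.75 and 2.09.

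For each cathepsin the gene with the most similar pattern over the 12 samples was found as the smallest root mean square difference of log2 values, each taken against the mean of its own control or sham group, among 13485 genes. The patterns share their samples, so the distances are a description. The nearest genes to Ctsz and Ctss were Ncf4, a subunit of the phagocyte NADPH oxidase, at 0.213 and Emp3, a membrane protein, at 0.223. Ctse was nearest to Sfn, an epithelial 14-3-3 protein, at 0.457, and Ctsk to AABR07021402 at 0.363. Ctsl had the closest match of all, Prkra, at 0.0755, and Ctsh was nearest to Spata2 at 0.132, Ctsa to Spty2d1 at 0.162, Ctsb to Ago2 at 0.1797, Ctsc to Maml2 at 0.211 and Ctsd to Rapgef1 at 0.221.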

How the data were processed

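Kidney RNA of 12 rats in 4 groups of 3 was analysed, with groups taken from the labels. The authors deposited FPKM values per gene in 2 tables. By the methods, bases of poor quality or without a call were trimmed, reads were mapped and the assembled transcripts merged before FPKM was computed. Per the submitters' processing notes, cutadapt 1.9, HISAT2 2.0.4, StringTie 1.3.4d, edgeR and DESeq2 were used. The methods name DESeq2 for the fold changes of the authors. The roles of the other tools, the genome build and the annotation are not given in the sources used here. An entry was tested where FPKM reached 0.5 in 3 or more of its 6 samples. The scale was log2(FPKM + 0.1), which understates the fold change of low genes. Entries under 0.5 FPKM in every control or sham kidney were tested only where the treated kidneys were higher. Counts of rises that include such entries, as Cd163 and Cst6 in both models, are partly set by the filter. limma 3.58.1 in R 4.3.3 (lmFit, then eBayes with its trend option) gave the fits, and Python 3.11.15 (numpy 2.4.6; pandas 2.3.3; scipy 1.17.1; matplotlib 3.10.9) the rest. p-values were Benjamini-Hochberg adjusted over all 15029 entries of the adenine and 15043 of the UUO table. "Rose" and "fell" stand for an adjusted p under 0.05, and DEGs also had a log2 fold change of 2 or more in size. To compare the models, the UUO log2 fold change was subtracted from the adenine one and divided by the root of the summed squared standard errors, with t on the sum of both degrees of freedom, over 13486 symbols listed once and tested in both tables. This takes the errors of the tables as independent. The scripts were tested on simulated data.

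How many reads each sample had is unknown. Ratios between samples of values under 0.1 FPKM were searched for the worth of a read, and the commonest ratio was shared by 0.75% to 1.36% of low genes in the adenine and 2.61% to 6.68% in the UUO table, too few to give relative depth. Precision rests on the spread between 3 rats. The labels name no batch.

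The 10 genes, the gene lists and the marker lists were chosen with earlier results of these data known. Named genes are the 10 cathepsins, in each list the tested gene with the highest mean FPKM and those with the largest and the smallest log2 fold change, direct partners, inhibitors or substrates of a cathepsin, and the gene nearest to each cathepsin. Mitf, Napsa, Krt5, Upk1b, C1qc, Mrc1, Adgre1 and Csf1r were added after their values were seen. The settings varied were the pseudocount (1 or 0.01), the filter (none, or 1 FPKM), the scaling (median-of-ratios, quantile, or the same sum of FPKM in every sample), the trend of eBayes, a replicate block, the fold change (from mean FPKM) and its threshold (none), and the samples (each left out in turn). Symbols with more than 1 entry were left out of the lists.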

Additional observations from a re-analysis of the deposited data

Results flagged for a closer look

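For 8 of the 10 cathepsins the change in the adenine model differed from that in the UUO model by the test of the difference itself (adjusted p under 0.05). The log2 fold change in the adenine model minus that in the UUO model was 3.63 for Ctsk, 1.64 for Ctsz, 1.43 for Ctsd, 1.39 for Ctsb, 0.96 for Ctss and 0.84 for Ctsa. It was -0.61 for Ctsl and -2.04 for Ctse, the genes with the higher change under obstruction. The difference of Ctsa did not pass in 11 of 21 alternative settings. With median-of-ratios scaling the difference of Ctsl was -0.30 (adjusted p = 0.320) and its changes were -0.56 in the adenine and -0.27 in the UUO model. Ctsl is also the cathepsin whose fitted values had opposite signs in the models, -0.27 and 0.33, of which only the latter passed. The models differed in agent, duration and table as well, which cannot be told apart. With 3 samples in a group, no sample could be examined as an outlier.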

How the results depend on the processing

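Upregulated cathepsin DEGs numbered 5 to 9 in the adenine model over all settings (main 6, 5 to 7 when a sample was left out) and 4 in the UUO model under all settings except no fold-change threshold, which gave 9. Ctse, Ctsk, Ctss and Ctsz kept their calls in both models under every setting run. Cathepsins with a difference of at least 2 between the models numbered 1 in the adenine direction, 1 in each fit without a sample, and 6 with no threshold on size. In the UUO direction there was 1 (Ctse), 0 under a pseudocount of 1, under the median-of-ratios or quantile methods or with FPKM rescaled to the same sum, 2 with no threshold on size, and 0 to 1 when a sample was left out; the difference of Ctse itself had an adjusted p of at most 0.0151 in all of these. With median-of-ratios scaling the UUO change of Ctsa turned to -0.33 and that of Ctsl to -0.27, and Ctsb, Ctsc, Ctsd and Ctsh no longer passed, since this scaling takes the median of all entries to near 0. The difference of Ctsh ran from -0.070 (without control replicate 2) to 0.52 when a sample was left out. The difference of Ctsa did not pass in 11 of 21 alternatives and that of Ctsl in 6. The labels give no pairing of rats across groups. Correlations of deviations between rats of the same number were -0.12 to -0.049 in the adenine and 0.050 to 0.11 in the UUO model. Those of other pairs were -0.044 to 0.11 and -0.078 to 0.016. With 3 rats in a group these values cannot show whether the numbers pair rats. The fit with a replicate block left 6 and 4 DEGs, with Ctsh in the adenine model no longer past the threshold (adjusted p = 0.0648). DEG counts of the small lists moved by over 1.5 times under some settings, such as the UUO hydrolases from 2 to 0 (larger pseudocount, median-of-ratios, quantile, or without sham replicate 3) or 1 (without UUO replicate 1 or 3), the inhibitors from 3 to 1 in the adenine model (larger pseudocount) and from 2 to 1 in the UUO model (larger pseudocount or quantile), the adenine peptidases (median-of-ratios, or without adenine replicate 2) and partners (median-of-ratios) from 2 to 1, and the UUO partners from 0 to 1 (same sum, or without sham replicate 1 or UUO replicate 3). The causes were not tested. Depth is unknown, so the limit it sets on low values could not be assessed. The UUO change of Ctse, the lowest gene, was 3.96 with a pseudocount of 1.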

Other observations

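Of 10 other cathepsin genes looked for, 2 were tested in each model. Ctsf rose by 1.46 (adjusted p = 5.92e-05) in the adenine and by 1.39 (adjusted p = 2.34e-05) in the UUO model. Ctsw, a cathepsin of cytotoxic lymphocytes, had a change of 0.81 (adjusted p = 0.114) in the adenine model and rose by 2.85 (adjusted p = 0.00144) in the UUO model. Ctsg and the placental Cts7, Cts8, Ctsj, Ctsm, Ctsq and Ctsr were listed at 0.0001 in all sham and UUO samples. They had no entry for the control and adenine samples, and Ctso had none for either model, so their levels there are unknown.

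Of the granule proteases that cathepsin C activates, 2 passed the filter in the adenine model. With obstruction, Gzma, Gzmk and Gzmb, granzymes of cytotoxic lymphocytes, were all upregulated DEGs with log2 fold changes of 3.59, 3.29 and 2.71. Upregulated DEGs were 13.2% of all entries there. Gzma and Gzmb were under 0.5 FPKM in every sham kidney (highest 0.378 and 0.368) and passed the filter through the UUO kidneys alone. Genes that enter in this way are bound to be higher in UUO kidneys, so this count cannot be weighed against that share. In the adenine model Gzma had -0.96 (adjusted p = 0.163) and Gzmk 0.51 (adjusted p = 0.484). The others of the list were below the filter there, except Ctsg, which had no entry. The change in the adenine model minus that in the UUO model was -4.55 for Gzma (adjusted p = 0.000344) and -2.78 for Gzmk (adjusted p = 0.0227). The cytotoxic lymphocyte markers Cd3e, Cd8a, Nkg7 and Prf1 all rose in the UUO model, by 3.29 to 3.56, while in the adenine model Cd3e rose by 2.23 and Cd8a by 1.49 and the others did not pass. Of all entries, 56.1% rose in the UUO and 39.6% in the adenine model.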
